A study of Mus musculus with 8 samples.

Results

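A set of 10 transcription factors of naive and resting T cells was compared between TNFR2+ and TNFR2- regulatory T cells (Tregs). The genes (Tcf7, Lef1, Id3, Satb1, Bach2, Bcl6, Foxp1, Klf3, Ets1 and Myb) were chosen by name, after the Ensembl identifiers of the deposited table had been paired with mouse symbols. The factors and the gene lists below were chosen with earlier results of these data known. Their counts beside the shares of all genes are therefore a description. All 10 factors were among the 20172 genes of the table, and all 10 passed the minimum mean normalized count of 10 that left 13990 genes to test. RNA came from CD4 T cells of the spleens of Foxp3 YFP-cre mice (Foxp3CreYFP), sorted as YFP+ TNFR2+ or YFP+ TNFR2- cells, with 4 libraries of each population. These mice carry a Cre-YFP fusion expressed from the Foxp3 gene, so YFP marks the cells that transcribe Foxp3, and both populations share this allele. No treatment is named for any sample. The series text calls the mice female, whereas the methods name animals of either sex, and the study used mice of 8 to 12 weeks of age and 100000 sorted cells per sample.

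Naive and resting T cells keep a set of transcription factors that hold back effector differentiation and maintain recirculation and survival. Tcf7 and Lef1 encode the HMG-box proteins TCF1 and LEF1, which bind a shared DNA sequence, recruit beta-catenin or Groucho-type repressors, and are used by stem-like T cells. Satb1 organizes chromatin loops, Bach2 competes with AP-1 factors at effector genes, Foxp1 and Klf3 are repressors linked to quiescence, and Id3 blocks E proteins. In Tregs these genes are associated with the resting, lymphoid-homing state, as opposed to the effector state.

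The normalized counts, which the authors obtained with DESeq2 from estimated transcript abundance, summed to between 9576920 and 11492762 per library. Tnfrsf1b, which encodes TNFR2 and was the basis of the sort, was higher in TNFR2+ Tregs (2501 ± 544 against 1321 ± 168 normalized counts, mean ± SD, n = 4 in each group), with every TNFR2+ library above every TNFR2- library. Foxp3 was present in all libraries at 3126 ± 219 and 3664 ± 316 normalized counts (log2 difference -0.23, limma adjusted p = 0.232), and all 16 listed Treg and T-cell identity genes were in the table. Of these 16, 8 were called higher in TNFR2+ Tregs and 0 lower (limma, 11 and 1 at an unadjusted p under 0.05), with a median log2 difference of 0.51. Izumo1r, Ctla4, Tnfrsf18 and Nrp1 were among the genes called. Il2ra went the other way (2742 ± 225 against 3482 ± 363 normalized counts), with every TNFR2+ library below every TNFR2- library. It was not called (log2 difference -0.34, limma adjusted p = 0.086). The summed level of the 16 genes was 44505 to 49986 normalized counts in TNFR2+ and 31196 to 38853 in TNFR2- libraries, without overlap. The part of these genes in the differences of the factors was not tested. The third TNFR2- library stood apart from the other 7 on the second principal component, and values without it are given beside the results. The paper's figure legend gives n = 4 for the sorted mice, without saying how libraries map to mice. The labels do not tie the libraries of a group to separate mice, so p-values measure the spread between libraries, which may be technical. In bulk samples like these, fewer cells expressing a gene and less RNA per cell cannot be told apart.

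TNFR2+ Tregs had lower levels of 6 of the 10 factors and higher levels of none. The test was limma on log2(normalized count + 1), fitted over all 13990 genes, with p-values adjusted over all of them (Benjamini-Hochberg) and called under 0.05. At an unadjusted p under 0.05 the limma counts were likewise 6 lower and 0 higher, where 10.7% of all genes tested were lower and 12.3% higher, shares against which the unadjusted counts of each list are to be read. Of all genes tested, 3.39% were called lower (474 genes) and 4.52% were called higher (633 genes). With every library rescaled to the same sum, the split was 309 lower and 905 higher, and the 10 factors then gave 5 lower and 0 higher. The 6 factors were Satb1, Klf3, Lef1, Bach2, Foxp1 and Tcf7, in order of the size of the difference. In each of them every TNFR2+ library lay below every TNFR2- library, a pattern seen in 7.29% of all genes, while 8.08% of all genes showed the opposite pattern, which no factor did. The median log2 difference of the 10 factors was -0.77, against -0.01 over all genes. Leaving out the third TNFR2- library again gave 6 factors lower and 0 higher.

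**Figure D1:**
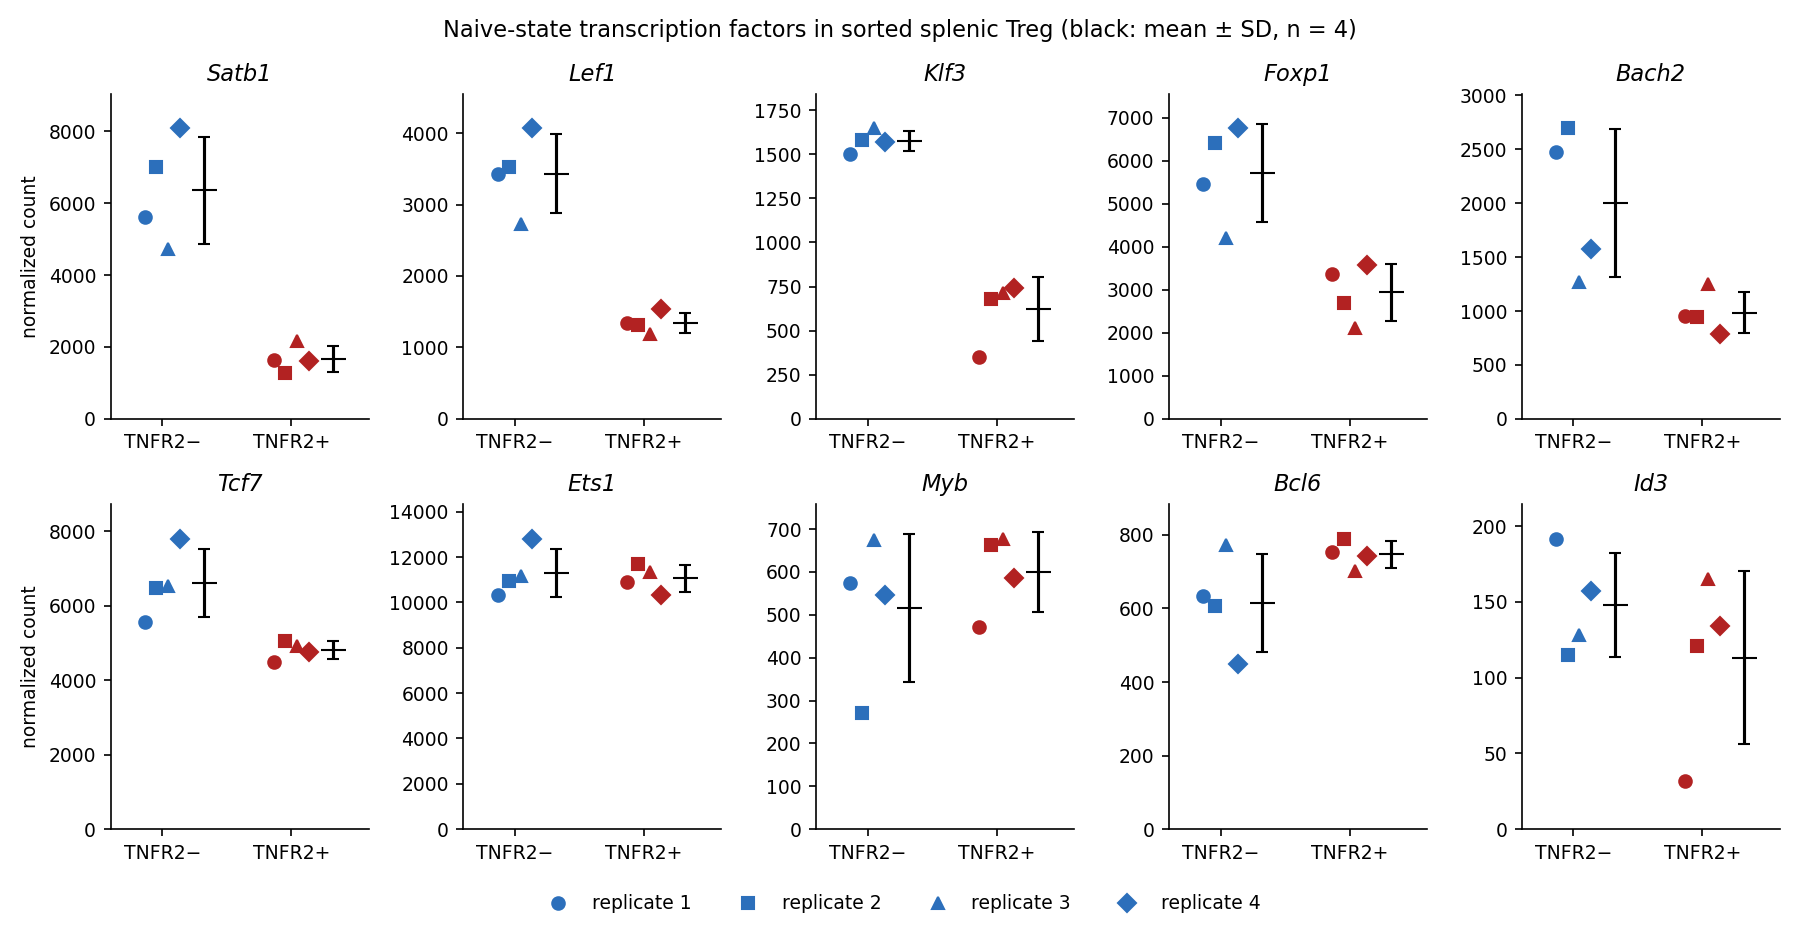
Normalized counts of the 10 factors (vertical axes, starting at 0) in TNFR2- and TNFR2+ Tregs, with 1 symbol per replicate and black bars for the mean ± SD (n = 4). The groups are separate for Satb1, Lef1, Klf3, Foxp1, Bach2 and Tcf7 and overlap for Ets1, Myb, Bcl6 and Id3. The closest pair of libraries among the separate factors is in Bach2.

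Satb1, the chromatin organizer, had the largest difference of the 10. It lies on chromosome 17 (GRCm38, chr17:51736187-51833290, minus strand). Its normalized counts were 1638, 1279, 2153 and 1609 in TNFR2+ replicates 1 to 4 and 5612, 6993, 4722 and 8079 in TNFR2- replicates 1 to 4. The highest TNFR2+ library held less than the lowest TNFR2- library by a wide margin, and means were 3.80-fold higher in TNFR2- Tregs (1670 ± 361 against 6352 ± 1483). The log2 difference was -1.92 ± 0.18 (SE, limma adjusted p = 0.000108). Satb1 passed the threshold in all 16 alternative fits, and without the third TNFR2- library, the lowest of its group, the difference was -2.05.

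Lef1 (chr3:131110471-131224356, plus strand) followed the same direction. Normalized counts were 1345, 1320, 1194 and 1534 in TNFR2+ and 3422, 3526, 2722 and 4066 in TNFR2- replicates 1 to 4. No library crossed between the groups, and the mean was 2.55-fold higher in TNFR2- Tregs (1348 ± 140.3 against 3434 ± 552). The log2 difference was -1.34 ± 0.14 (limma adjusted p = 0.000238). It passed in every one of 16 alternative fits, and was -1.45 without the third TNFR2- library.

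Tcf7 (chr11:52252371-52283014, minus strand), whose protein binds the same DNA sequence as that of Lef1, differed far less. Normalized counts were 4484, 5054, 4911 and 4763 in TNFR2+ and 5574, 6485, 6539 and 7800 in TNFR2- replicates 1 to 4. The groups did not overlap, but the mean was only 1.37-fold higher in TNFR2- Tregs (4803 ± 244 against 6600 ± 915). On the log2 scale the difference was -0.45 ± 0.11 (limma adjusted p = 0.0268). This call was lost when any TNFR2+ library was left out (adjusted p = 0.0806, 0.0580, 0.0633 and 0.0590 without replicates 1 to 4), and without TNFR2- replicate 2 (0.0655) or 4 (0.0574). Rescaling all libraries to the same sum also ended it (-0.32, adjusted p = 0.0754), as did a fit without the intensity trend (0.152). Without the third TNFR2- library it was -0.45 (0.0419).

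The ratio of Lef1 to Tcf7 was therefore also taken in each library, chosen after the values were seen and not tested. Lef1 counts divided by Tcf7 counts were 0.300, 0.261, 0.243 and 0.322 in TNFR2+ and 0.614, 0.544, 0.416 and 0.521 in TNFR2- replicates 1 to 4. The ratio is independent of library scaling, and its groups did not overlap.

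Klf3, a Krüppel-like repressor (chr5:64803388-64832901, plus strand), gave normalized counts of 349.8, 681, 714 and 741 in TNFR2+ and 1503, 1582, 1646 and 1567 in TNFR2- replicates 1 to 4. The TNFR2- libraries lay close together, and the first TNFR2+ library lay well below the other 3 of its group. Means were 621 ± 183 and 1575 ± 58.6, a 2.53-fold difference. The log2 difference was -1.40 ± 0.21 (limma adjusted p = 0.00157) and passed in all 16 alternative fits. Without the first TNFR2+ library it was -1.14, and without the third TNFR2- library -1.38.

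Foxp1, a forkhead factor needed for the quiescence of naive T cells (chr6:98925338-99522721, minus strand), had normalized counts of 3361, 2698, 2119 and 3586 in TNFR2+ and 5463, 6408, 4209 and 6757 in TNFR2- replicates 1 to 4. Its lowest TNFR2- library, replicate 3, still exceeded the highest TNFR2+ library. The mean was 1.94-fold higher in TNFR2- Tregs (2941 ± 665 against 5709 ± 1140), with a log2 difference of -0.96 ± 0.18 (limma adjusted p = 0.00556). The call held in 15 of 16 alternative fits and was lost without the intensity trend (adjusted p = 0.0710). Without the third TNFR2- library the difference was -1.10. Foxp1 and Lef1 ordered the libraries alike within both groups, from replicate 4 down to replicate 3.

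Bach2, a BTB and leucine-zipper repressor (chr4:32238804-32586108, plus strand), varied most among the TNFR2- libraries of the 6 factors. Normalized counts were 953, 949, 1250.1 and 787 in TNFR2+ and 2477, 2694, 1272 and 1579 in TNFR2- replicates 1 to 4. The highest TNFR2+ library and the lowest TNFR2- library, both replicate 3, were almost level. Means were 985 ± 193 and 2005 ± 687, a 2.04-fold difference, and the log2 difference was -0.98 ± 0.23 (limma adjusted p = 0.0188). The call was lost without TNFR2+ replicate 1 (adjusted p = 0.0528), 2 (0.0549) or 4 (0.0522), without TNFR2- replicate 1 (0.0618) or 2 (0.0636), and without the intensity trend (0.107). Leaving out the third TNFR2- library raised the difference to -1.17 (0.00421).

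Bcl6, the zinc-finger repressor of follicular T cells that also opposes Prdm1 (chr16:23965052-23988852, minus strand), did not pass the threshold. Normalized counts were 753, 790, 701 and 743 in TNFR2+ and 634, 606, 774 and 449 in TNFR2- replicates 1 to 4. The groups overlapped through the third TNFR2- library. This was a log2 difference of 0.30 ± 0.17 (limma adjusted p = 0.325). Without that library it was 0.42 (adjusted p = 0.143).

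Id3 (chr4:136143497-136145755, plus strand) was the least abundant in normalized counts and also missed the threshold. Its values were 32.1, 121, 165 and 134 in TNFR2+ and 192, 115, 128 and 157 in TNFR2- replicates 1 to 4. Only the first TNFR2+ library lay below all TNFR2- libraries. The log2 difference of -0.58 ± 0.45 (limma adjusted p = 0.480) was -0.06 without that library and -0.64 without the third TNFR2- library (0.492).

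Ets1, the most abundant of the 10 in normalized counts and a factor that T cells need for survival (chr9:32636221-32757820, plus strand), was nearly level. It had 10918, 11697, 11324 and 10333 normalized counts in TNFR2+ and 10324, 10934, 11181 and 12818 in TNFR2- replicates 1 to 4. On the log2 scale this was -0.03 ± 0.10 (limma adjusted p = 0.898), likewise -0.03 without the third TNFR2- library, and its sign changed to 0.10 when libraries were rescaled to the same sum. Ets1 and Tcf7 ranked the TNFR2- libraries alike, with replicate 4 highest and replicate 1 lowest.

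Myb (chr10:21124935-21160984, minus strand), a regulator of T-cell progenitors and of Treg differentiation, had 473, 663, 678 and 586 normalized counts in TNFR2+ and 573, 270.3, 674 and 546 in TNFR2- replicates 1 to 4. The ranges overlapped, with the second TNFR2- library lowest of all. The estimate on the log2 scale was 0.28 ± 0.26 (limma adjusted p = 0.564) and -0.00 without that library, and 0.435 without the third TNFR2- library (0.351).

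**Figure D2:**
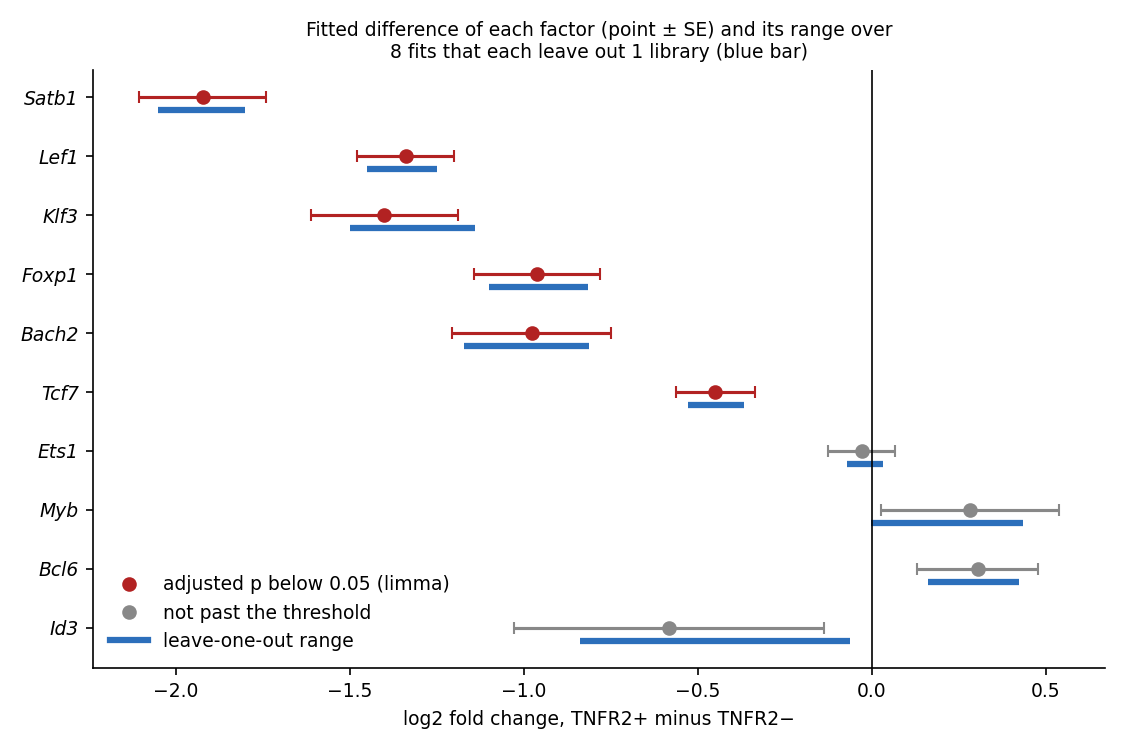
Log2 difference between TNFR2+ and TNFR2- Tregs (horizontal axis) for each factor, as the limma estimate ± SE (points, red where the adjusted p was under 0.05) and as the range over the 8 fits that each leave out 1 library (blue bars). The bars of Satb1, Klf3 and Lef1 stay below -1, and those of Ets1 and Myb reach both sides of 0.

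The table also listed transcripts that are annotated separately within or across these genes. It held 20 annotated transcripts that overlap 1 of the 10 genes, 13 of them on the same strand, and 12 of those could be tested. These were chosen after values were seen. Of the 12, 11 were called lower in TNFR2+ Tregs, as were 3.39% of all genes, and their groups did not overlap, a pattern of 7.29% of all genes. Without the third TNFR2- library the count was again 11. All of the 12 lie at the 6 factors that were lower. For Ets1, Myb, Bcl6 and Id3 no tested transcript overlapped on the same strand, so the comparison cannot be made for them. Apart from Gm36931 (156 of its 4801 exon bases) and Gm20696 (300 of 4075), the tested transcripts shared no exon base with the factor, so reads unique to them came from outside the exons of the factor. Unspliced RNA of the factor and a separate transcript from the same strand cannot be told apart here.

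Of these 12, 5 lie within Satb1. The most precise was C230085N15Rik (chr17:51757295-51761621), with 318, 298, 291 and 333 normalized counts in TNFR2+ and 1329, 1161, 1055 and 1444 in TNFR2- replicates 1 to 4. Its libraries varied less than those of Satb1 itself, and the groups were far apart. The log2 difference was -1.997 ± 0.15 (limma adjusted p = 3.19e-05), beside -1.92 for Satb1. E430014B02Rik (-1.97), Gm36931 (-1.88), 5830444F18Rik (-1.74) and Gm37248 (-1.65) gave log2 differences of like size.

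At Lef1, Gm42449 (chr3:131136785-131139042) had 22.9, 21.1, 39.5 and 43.4 normalized counts in TNFR2+ and 131, 167, 209.6 and 200.2 in TNFR2- replicates 1 to 4. This is a log2 difference of -2.49 ± 0.36 (limma adjusted p = 0.00114), beside -1.34 for Lef1. Bach2it1, inside Bach2 (chr4:32251761-32265835), had 16.6, 8.75, 27.2 and 31.5 against 132, 77.3, 127 and 82.4 normalized counts, with a log2 difference of -2.36 ± 0.47 (limma adjusted p = 0.00801) beside -0.98 for Bach2. In contrast to Bach2, its groups were well separated, at much lower counts. At Klf3, C230096K16Rik differed by -2.65 on the log2 scale (mean 15.1 ± 5.19 against 98.8 ± 28.1 normalized counts, limma adjusted p = 0.00303).

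Gm26551, which reaches from within Tcf7 to far downstream of it (chr11:51949882-52269514), differed by -0.98 (238 ± 42.0 against 469 ± 49.7 normalized counts, limma adjusted p = 0.00676) and passed in all 16 alternative fits, unlike Tcf7. At Foxp1 the log2 differences were -0.87 for Gm20696 and -1.83 for Gm20705 (limma adjusted p = 0.0350 and 0.0316), and both were lost in 7 or more of 16 alternative fits. Gm24371, a short transcript in Bach2, did not pass (-1.24, limma adjusted p = 0.403). Whether the differences of host and overlapping transcript differ from each other was not tested.

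**Figure D3:**
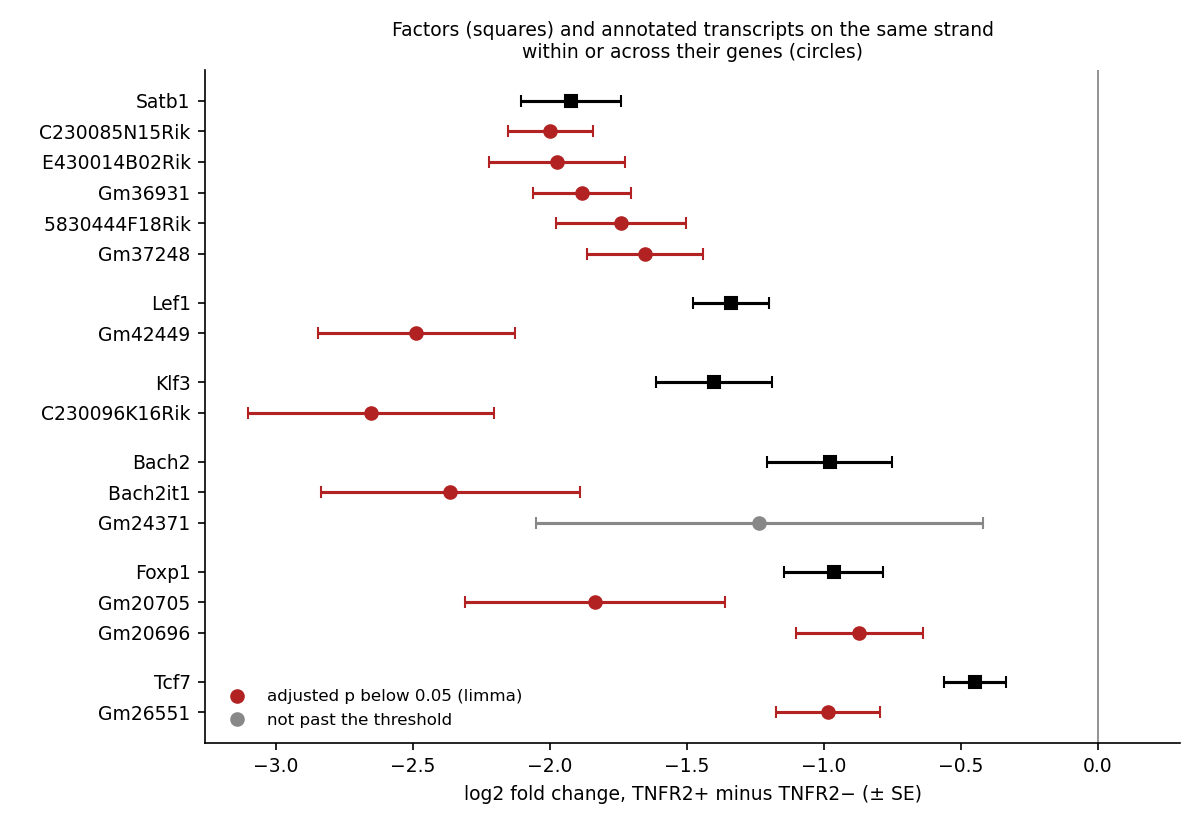
Log2 difference between TNFR2+ and TNFR2- Tregs ± SE (horizontal axis) for the 6 factors that were lower (black squares) and for the 12 tested transcripts annotated on the same strand within or across their genes (circles, red where the limma adjusted p was under 0.05). All points lie below 0, and the 5 transcripts within Satb1 lie between -1.997 and -1.65, near Satb1 itself.

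Levels of different factors were compared per length of the exon union, the sum of all annotated exon bases of a gene. In TNFR2- Tregs Tcf7 stood highest (2514 ± 348 normalized counts per kb), followed by Ets1 (1335 ± 126). Foxp1 (415 ± 82.9), Lef1 (391 ± 62.8) and Satb1 (334 ± 78.0) came next, with overlapping libraries. Below them were Bach2 (202 ± 69.1), Klf3 (140.1 ± 5.21), Bcl6 (91.9 ± 19.9), Id3 (82.7 ± 19.0) and Myb (57.7 ± 19.3). The libraries of Bach2 overlapped with those of Satb1 and of Klf3, and those of Bcl6, Id3 and Myb overlapped with each other.

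In TNFR2+ Tregs Tcf7 (1830.0 ± 92.8 normalized counts per kb) and Ets1 (1306 ± 68.9) still led. The gap to the next factors was wider, with Foxp1 at 214 ± 48.4 and Lef1 at 153 ± 16.0, whose libraries overlapped. Bcl6 (112 ± 5.44), Bach2 (99.1 ± 19.4), Satb1 (87.8 ± 19.0), Myb (67.1 ± 10.5), Id3 (63.2 ± 31.9) and Klf3 (55.3 ± 16.3) made up the lower end, with overlapping libraries of neighbours in this order. The order depends on the length used: per kb of the longest transcript, Ets1 led Tcf7 in TNFR2+ Tregs (2179 against 1944), where Satb1 (268) stood above Bcl6 (190) and Bach2 (111) and Id3 (88.5) was last, and Satb1 (1017) and Lef1 (939) exceeded Foxp1 (796) in TNFR2- Tregs.

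**Figure D4:**
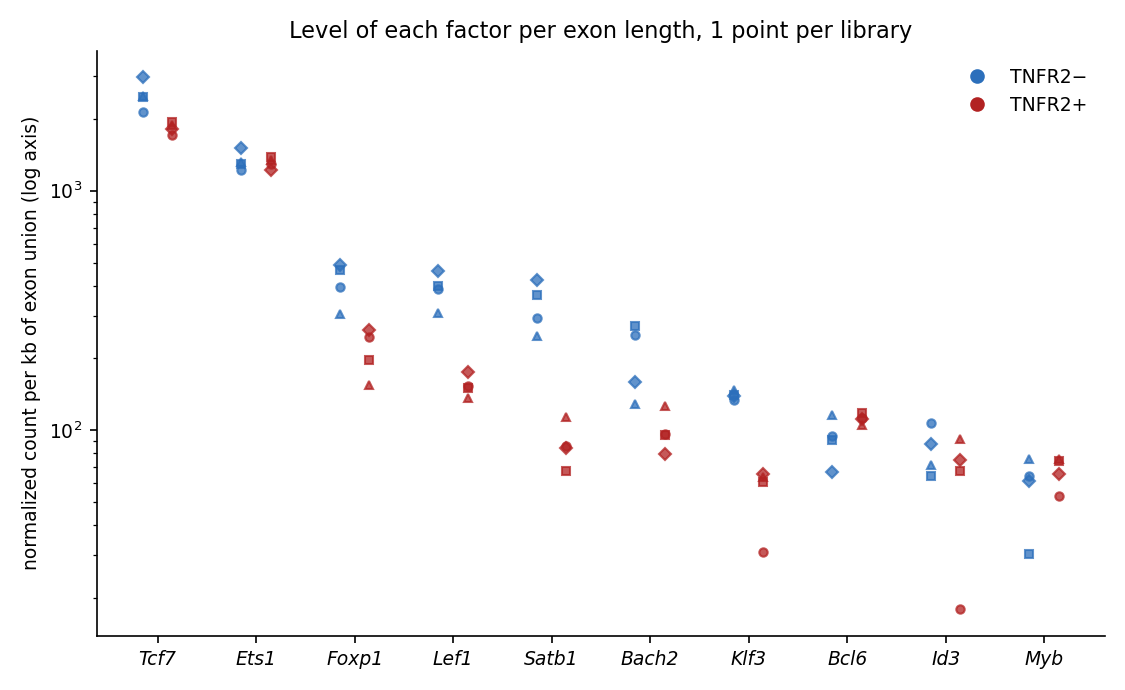
Normalized counts per kb of exon union (vertical axis, log scale) of the 10 factors in each TNFR2- (blue) and TNFR2+ (red) library. Tcf7 and Ets1 lie above the other 8 factors in every library.

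Relatives of the 10 factors from the same families were read from the same fit. Of 25 relatives, 18 could be tested, with 3 lower, 1 higher and 14 not past the threshold, and a median log2 difference of -0.18. Without adjustment, 6 were lower and 3 higher at a limma p under 0.05. The number called lower was 5 without the third TNFR2- library and 5 with the replicate number as a block. The 3 called lower with all libraries and no block are Krüppel-like factors. Klf2, which drives the expression of homing receptors in resting T cells, had 2072, 2754, 2807 and 3499 normalized counts in TNFR2+ and 7858, 10745, 7854 and 14094 in TNFR2- replicates 1 to 4. Its groups were far apart, with a log2 difference of -1.85 ± 0.19 (limma adjusted p = 0.000244). Klf7 (-1.60, limma adjusted p = 0.00402) and Klf13 (-0.65, limma adjusted p = 0.00457) followed.

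The relative that was higher was Id2, an inhibitor of E proteins like Id3 that is associated with effector cells. It had 677, 947, 814 and 691 normalized counts in TNFR2+ and 325, 246, 457 and 289 in TNFR2- replicates 1 to 4. No TNFR2- library reached the TNFR2+ range, and the log2 difference was 1.27 ± 0.21 (limma adjusted p = 0.00246). Id2 counts divided by Id3 counts, a ratio chosen after the values were seen and not tested, were 21.1, 7.83, 4.93 and 5.15 in TNFR2+ and 1.69, 2.14, 3.56 and 1.84 in TNFR2- replicates 1 to 4. The groups did not overlap, and the highest value came from the library with the lowest Id3.

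For the other families the best expressed relative per kb was taken. None passed the threshold: Elf1 of the Ets family gave -0.36 (limma adjusted p = 0.0837), Foxp4 0.28 (0.423), Bach1 -0.13 (0.749), Mybl2 -0.23 (0.786) and Tcf7l1 -0.23 (0.932). Tcf7l1 and Mybl2 were scarce (means of 21.4 and 69.2 normalized counts in TNFR2+ Tregs), and Bcl6b was too low to be tested. No near-identical copy (at least 95% identity over at least 50% of the length) of any of the 10 factors was found among annotated transcripts.

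A list of 15 transcription factors associated with effector or tissue Tregs formed the opposite group. Of them 11 were higher in TNFR2+ Tregs, 0 were lower and 4 did not pass, with a median log2 difference of 0.99 (limma, 1 lower and 13 higher at an unadjusted p under 0.05). Bhlhe40 had 20206, 19207, 21779 and 14052 normalized counts in TNFR2+ and 6730, 3018, 7625 and 2635 in TNFR2- replicates 1 to 4. Every TNFR2+ library held more than any TNFR2- library, and the log2 difference was 2.05 ± 0.29 (limma adjusted p = 0.00113). Nfil3 (1.59, limma adjusted p = 0.0010), Batf (499 ± 77.1 against 206 ± 53.9 normalized counts, limma adjusted p = 0.00411), which pairs with Jun proteins at sites that Bach2 can also bind, and Id2 were the other leading members. Prdm1, named because Bcl6 opposes it, was also higher (1.53, limma adjusted p = 0.0210) with overlapping groups. The number of these genes called higher was 4 without the intensity trend and 6, 7, 6 and 5 without TNFR2+ replicates 1, 2 and 3 and TNFR2- replicate 2, and 13 without the third TNFR2- library.

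Co-factors and DNA-binding partners of the 10 factors were mostly not past the threshold. Of 28 listed, 27 could be tested, with 3 lower, 1 higher, 23 not called and a median log2 difference of -0.08. At an unadjusted p under 0.05 the limma counts were 8 lower and 2 higher. Maff (-0.89, limma adjusted p = 0.00594), a small Maf protein of the class that pairs with Bach2, and Bcl9l (-0.79, limma adjusted p = 0.0222) and Tle1 (-1.95, limma adjusted p = 0.0442), which join the TCF1 and LEF1 complexes as activator and repressor, were lower. Tle1 was scarce (53.0 ± 37.5 against 194 ± 108 normalized counts), and its groups overlapped. The more abundant Tle3 (0.10, limma adjusted p = 0.725) and Tle4 (-0.50, limma adjusted p = 0.076) were not called. Hdac2, a histone deacetylase, was higher (0.93, limma adjusted p = 0.0170). Ncor1, the best expressed co-factor, was at -0.24 (limma adjusted p = 0.225). Only Maff of these 4 called genes passed in all 16 alternative fits, and 1 co-factor was called lower without TNFR2+ replicate 2 or 3, TNFR2- replicate 1 or 2, or the intensity trend, and 4 without the third TNFR2- library.

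Of 9 genes known as targets of TCF and LEF proteins with beta-catenin, 5 were in the table and 4 could be tested, with 2 lower and 0 higher (limma, 2 and 1 at an unadjusted p under 0.05). Znrf3, which encodes a ubiquitin ligase that removes Wnt receptors, had 273, 326, 232 and 299.6 normalized counts in TNFR2+ and 622, 839.6, 545 and 849 in TNFR2- replicates 1 to 4. The groups did not overlap, with a log2 difference of -1.32 ± 0.20 (limma adjusted p = 0.00141). Axin2, a negative regulator of the same pathway, was at -0.75 (limma adjusted p = 0.0361), a call that was lost in 8 of 16 alternative fits, among them that without the third TNFR2- library, which left 1 of these targets lower. Rnf43 (0.65, limma adjusted p = 0.0843) and Myc (-0.41, limma adjusted p = 0.290) did not pass.

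A list of genes associated with naive cells held surface and trafficking receptors, and also secreted or intracellular proteins such as Igfbp4 and Actn1. Of 17 tested, 10 were lower, 0 were higher and 7 did not pass, with a median log2 difference of -1.43 (limma, 13 lower and 0 higher at an unadjusted p under 0.05). Igfbp4 had the smallest adjusted p of this list (140.1 ± 23.3 against 1857 ± 392 normalized counts, log2 difference -3.71, limma adjusted p = 8.94e-07). S1pr1, the receptor for exit from lymphoid tissue (-2.12), and Treml2 (-1.84) were also among the lower genes. Of 14 genes linked to quiescence, 8 were lower, 0 were higher and 6 did not pass, with a median of -0.44 (limma, 10 and 0 at an unadjusted p under 0.05). Txnip (-1.25), Tsc22d3 (-0.99), Btg2 (-0.54) and Pik3ip1 (-1.06) had the smallest adjusted p of that list, while Foxo1 was at -0.28 (limma adjusted p = 0.179). The quiescence count was 1 without the intensity trend, 3 with libraries rescaled to the same sum and 2 to 8 when 1 library was left out, the lowest of these without TNFR2+ replicate 2. Without the third TNFR2- library, 10 naive-cell genes and 8 quiescence genes were lower.

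**Figure D5:**
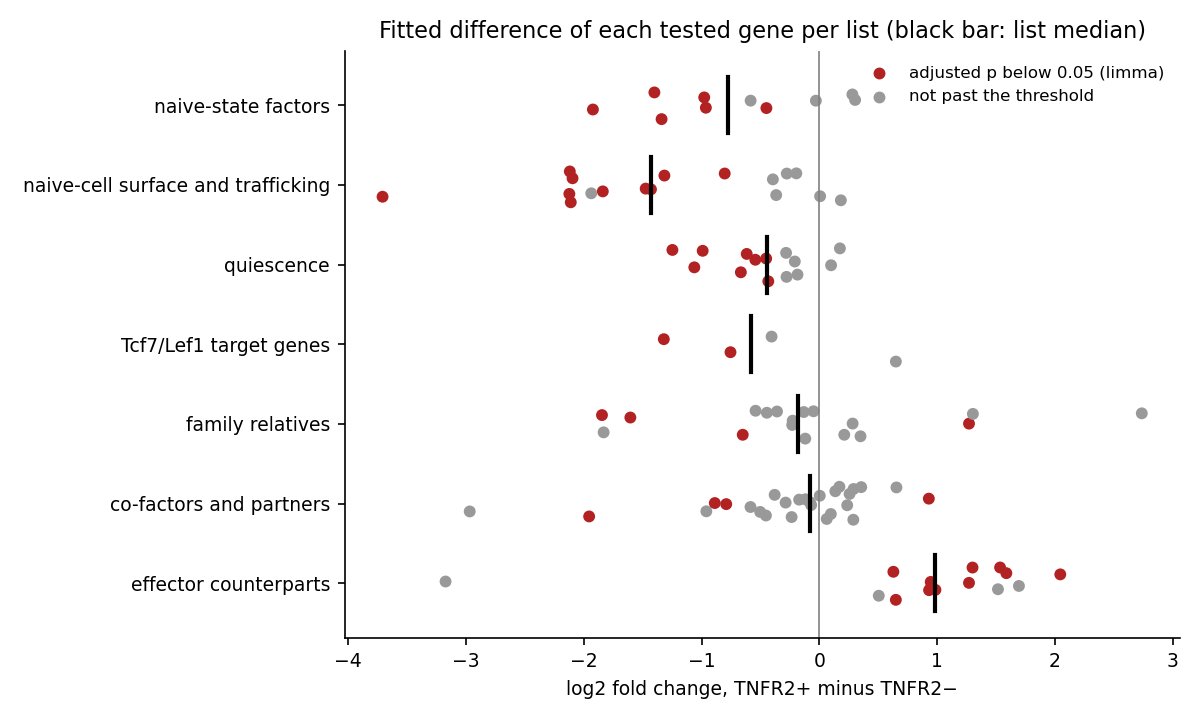
Log2 difference between TNFR2+ and TNFR2- Tregs (horizontal axis) of each tested gene in 7 lists, red where the limma adjusted p was under 0.05, with a black bar at the list median. Called genes lie on the left in the lists of naive-state factors, naive-cell genes (labelled surface and trafficking) and quiescence, and on the right among effector counterparts.

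Genes whose levels followed those of Tcf7 and Lef1 most closely were sought over the 8 libraries among 9203 protein-coding genes with a mean of at least 50. For Tcf7 these were H2-Ob, Vav1, Aes, Otulinl and Evl, with r from 0.964 to 0.979. For Lef1 they were Crebrf, Fes, Prkcq, Phf20l1 and Syf2, with r from 0.989 to 0.995. All 8 libraries share the difference between the 2 populations, so such values are a description and were not tested. Among the other factors, Satb1 ranked 68th and Foxp1 113th in likeness to Lef1, while Tcf7 ranked 397th.

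Of the 10 factors, 9 had an entry in the RefSeq windows around annotated start sites (GRCm38.p6, 250 bases before to 50 after the start), with 20 windows in all. Because TCF1 and LEF1 bind the letters CTTTGA or their reverse complement, the windows that hold them are shown. They occurred in 4 of 20 windows, of Lef1, Bach2, Foxp1 and Bcl6, against 16.0% of 32817 windows of all genes, and overlapped no other motif searched. Bcl6 is the one among them that was not lower. Each line gives 100 bases before the start site in the direction of transcription, 5′ to 3′, with the TCF/LEF letters in capitals.
Lef1 (chr3:131156094-131156193, plus strand, 200 to 101 bases before an internal start): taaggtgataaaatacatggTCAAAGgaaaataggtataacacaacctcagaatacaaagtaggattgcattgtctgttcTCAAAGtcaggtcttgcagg
Bach2 (chr4:32417322-32417421, plus strand, 113 to 14 bases before the start): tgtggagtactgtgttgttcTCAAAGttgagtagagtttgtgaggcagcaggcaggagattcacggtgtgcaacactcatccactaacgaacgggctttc
Foxp1 (chr6:99266640-99266739, minus strand, 224 to 125 bases before the start): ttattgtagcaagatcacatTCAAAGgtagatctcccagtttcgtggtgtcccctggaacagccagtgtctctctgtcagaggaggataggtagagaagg
Bcl6 (chr16:23981284-23981383, minus strand, 100 to 1 bases before the start): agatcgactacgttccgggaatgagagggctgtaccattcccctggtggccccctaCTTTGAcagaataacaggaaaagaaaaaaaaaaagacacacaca
Lef1 holds the letters at 2 places, and none of the 4 stretches touches an annotated exon. All 4 starts lie inside the gene spans given above.

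Other letter motifs were searched on both strands of the same windows. The forkhead letters GTAAACA were in 2 of 20 windows (Tcf7 and Myb, 3.65% of all windows), and the STAT letters TTCNNNGAA in 3 (Bach2 and Bcl6, 8.29%). The MYB letters CNGTTA were in 8 (23.3%), the ETS letters CCGGAA in 4 (14.9%), the NF-kB motif in 4 (20.7%) and the AP-1 letters TGANTCA in 0 (7.81%). CACCC, bound by Krüppel-like factors, was in 16 (57.5%) and the E-box CANNTG in 16 (72.3%). Some windows of the same gene overlap, so a site can be counted more than once. This holds for MYB, CACCC and E-box letters in Lef1 and Satb1. A match of letters is a description and not a binding site.

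Markers of other cells were checked because B cells also express several of the 10 factors. The summed B-cell list (12 of 16 genes in the table) was 4038 to 6147 normalized counts in TNFR2+ and 1837 to 3156 in TNFR2- libraries. Without Ighm the sums were 570.5 to 678 and 254 to 753. The value of 753 came from the third TNFR2- library. That library had the highest Ms4a1 (99.4), Ebf1 (80.4), Igkc (199), Pax5 (41.5), Cd22 (223), Ighd (53.0), Ighm (2404) and Spib (6.82) of its group. It did not have the highest Cd79a, Cd79b, Blnk or Fcer2a. Of 8 B-cell genes tested only Ighm was called (higher in TNFR2+, log2 difference 1.27, limma adjusted p = 0.000745). The CD8 and NK list (8 of 12 genes) summed to 147 to 236 and 113 to 170.0, and the myeloid list (10 of 18) to 2881 to 3827 and 2424 to 2957. Nkg7 (limma adjusted p = 0.00927) and Cybb (limma adjusted p = 0.00239) were the only called genes of these lists, both higher in TNFR2+. Most of the myeloid sum was Ctss (1413 against 1090 normalized counts in TNFR2+ and TNFR2-), Cebpb (994 against 1188) and Cybb (745 against 212). Every other gene of the myeloid list had a group mean of at most 62.95 (Siglech, TNFR2-). Erythroid and platelet genes, with 1 gene each in the table, reached at most 12.1 and 222. Their part in the differences of the factors was not tested.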

How the data were processed

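Per the paper's methods, the authors trimmed the reads of stranded total RNA libraries, estimated transcript abundance with salmon 1.3.0 on the Ensembl GRCm38 transcriptome and normalized genes with DESeq2 1.28. The deposited values are a normalized signal per gene (normalized counts, linear scale). The setting for strand is not given in the sources used here. Identifiers were paired with GENCODE M21 (20008 of 20172 matched). In low values of 2806 genes with 1 transcript, 69.7% to 96.4% lay within 0.1 of whole multiples of a step, so reads were not recovered for all genes and no count model was fitted. The step gave about 9100000 to 12110000 reads per library.

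Log2(normalized count + 1) of the 13990 genes with a mean of at least 10 was fitted with limma 3.58.1 in R 4.3.3 (intensity trend, two-sided, Benjamini-Hochberg, threshold 0.05). The fit was tested on simulated data. Alternatives were pseudocounts of 0.5 and 5, no filter or a minimum of 50, no trend, rescaling to the same sum or upper quartile, a replicate block and leaving out each library. The factors and lists were chosen with earlier results of these data known. Named genes are all 10 factors, up to 4 called genes in each direction per list, the best expressed relative or co-factor, and the 5 genes most like Tcf7 and Lef1. Other genes, ratios and overlapping transcripts were picked after values were seen. Copies were searched with blastn 2.17.0, and plots used matplotlib 3.10.9.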

Additional observations from a re-analysis of the deposited data

Results flagged for a closer look

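A library was looked at again when it lay far from the other 3 of its group on the log2 scale, that is, when its gap to the nearest, as a share of the group's range, was above Dixon's 95% critical value. Chance gives about 1 such group in 20, and 5 of 86 groups met it. Among the 10 factors this was only Klf3 in the first TNFR2+ library, with 349.8 normalized counts, the lowest of its group. Among other named genes it was Klf13 in TNFR2- replicate 1 (4723 normalized counts), Batf in TNFR2+ replicate 4 (384), Txnip in TNFR2- replicate 4 (5287) and Izumo1r, a Treg surface receptor, in TNFR2- replicate 2 (1034).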

How the results depend on the processing

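Satb1, Lef1 and Klf3 kept their calls in all 16 alternatives. Without the intensity trend 3 factors were called lower, the log2 differences of Tcf7 (-0.45), Bach2 (-0.98) and Foxp1 (-0.96) no longer passed, and 182 genes were lower and 283 higher. With the same sum per library, the median of all genes moved from -0.01 to 0.12, Tcf7 (-0.32) no longer passed, Ets1 changed sign to 0.10, and 309 genes were lower. Leaving out 1 library gave 4 to 6 factors lower, 278 to 540 genes lower and 344 to 761 higher, with ranges of -0.53 to -0.37 for Tcf7, -1.17 to -0.81 for Bach2, -0.0711 to 0.033 for Ets1 (0.00396 without TNFR2+ replicate 4, 0.033 without TNFR2- replicate 4) and -0.00334 to 0.435 for Myb (lowest without TNFR2- replicate 2). Of other genes named, Tcf7l1 ranged from -0.926 to 0.354 and changed sign without TNFR2+ replicate 1 (0.271) or 4 (0.353) or TNFR2- replicate 3 (0.354), and Mybl2 ranged from -0.462 to 0.00584, with the sign changed without TNFR2- replicate 4. The cause of these changes was not tested, beyond the fewer libraries. The labels do not say whether libraries of the same replicate number came from the same mice. Over all genes tested, the deviations of same-numbered libraries correlated at 0.000542, -0.0088, -0.0386 and -0.00535, which cannot settle this. With the number as a replicate block, 508 genes were lower and 675 higher, and no factor's call changed. The block lowered the SE of Foxp1 from 0.181 to 0.111 and raised that of Satb1 from 0.182 to 0.19. Per kb of the longest transcript, levels in TNFR2+ and TNFR2- Tregs were 1944 and 2671 for Tcf7, 2179 and 2227 for Ets1, 369 and 939 for Lef1, 268 and 1017 for Satb1, 409.8 and 796 for Foxp1, 119.0 and 302 for Klf3, 190 and 156 for Bcl6, 111 and 226 for Bach2, 88.5 and 116 for Id3, and 162 and 139.7 for Myb.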
